A study of Mus musculus with 3 samples.

Results

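The genes described here are 10 genes of muscle atrophy and autophagy, Trim63, Fbxo32, Trim54, Trim55, Foxo1, Foxo3, Foxo4, Sqstm1, Map1lc3b and Gabarapl1, chosen by name out of the 56748 genes of the count table. They were measured by RNAseq in adult cardiomyocytes (ACMs), ventricular muscle cells isolated from the hearts of wild-type mice of both sexes aged 8 to 10 weeks and kept in culture. One library came from ACMs given the vehicle (0.1% BSA), one from ACMs given 10 ng/mL of mouse oncostatin M (OSM) and one from ACMs given 10 ng/mL of human IL-6, each for 16 h. All 3 groups shared a serum-free medium with albumin, insulin, transferrin, selenium, a lipid supplement and the contraction inhibitor BDM at 10 mM. The RNA of a condition was pooled and sequenced as 1 library, so there are no replicates, and treatment and library cannot be told apart. The libraries held 24939980 counts with vehicle, 26362446 with IL-6 and 30773001 with OSM.

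Cardiac and skeletal muscle lose mass when protein breakdown outpaces synthesis, and much of that breakdown runs through the ubiquitin-proteasome system and through autophagy. Trim63 (MuRF1) and Fbxo32 (atrogin-1, also called MAFbx) encode the muscle-enriched ubiquitin ligases by which muscle atrophy is usually recognized, and both are known targets of the FoxO transcription factors, which insulin and AKT signaling keep out of the nucleus. FoxO factors also activate autophagy genes, among them those of the ATG8 family (LC3 and GABARAP proteins), which coat the autophagosome membrane, while p62, encoded by Sqstm1, brings ubiquitinated cargo to them. OSM and IL-6 belong to a cytokine family that signals through gp130, JAK kinases and STAT3, and the comparisons below ask how the transcripts of these genes differed between ACMs treated with either cytokine or with vehicle.

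The library labels were first checked against marker genes. All 15 cardiomyocyte markers were at or above 1 fpkm (fragments scaled by gene length and by library, as deposited) in every library, with a summed level of 16762 fpkm with vehicle, 17201 with IL-6 and 21461 with OSM, and Mb, which encodes myoglobin, was the most abundant. The 12 endothelial markers summed to 10.0, 10.1 and 11.9 fpkm, led by Cdh5, and the 12 fibroblast markers to 4.29, 4.19 and 3.75 fpkm, led by Gsn. All 12 endothelial markers had counts, 1159 in sum with vehicle, 1304 with IL-6 and 1585 with OSM, and 3, 3 and 4 of them were at or above 1 fpkm. The 12 macrophage markers summed to 14.1 fpkm with vehicle, 14.9 with IL-6 and 40.4 with OSM, and Cd68, a lysosomal protein, was the most abundant, at 13.2 fpkm with IL-6 and 37.8 with OSM, while Ptprc, Fcgr1, C1qa, C1qb and C1qc had 0 counts in all 3 libraries. The 10 smooth muscle and pericyte markers summed to 33.6, 36.4 and 24.1 fpkm, led with vehicle and IL-6 by Abcc9, a channel subunit that cardiomyocytes also express, and with OSM by Acta2, which encodes smooth muscle actin. Of 11 skeletal muscle markers, Ckm and Acta1 passed 1 fpkm, both of which the heart expresses, and Myog, Pax7, Myh1, Myh2 and Myh4 had 0 counts in all libraries. As a check on the response, Socs3 and Timp1, known targets of STAT3, had 670 and 203 counts with vehicle, 646 and 178 with IL-6, and 18194 and 6739 with OSM. The part of other cells in the results below was not tested, and in a pooled culture fewer cells of a type and less RNA per cell cannot be told apart.

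All 10 genes were well counted in every library, from 289 counts for Foxo1 to 134960 for Sqstm1 with vehicle, and none was lost to a filter. Sqstm1 stood far above the rest, the 15th protein-coding gene by fpkm with vehicle, the 14th with IL-6 and the 21st with OSM. On the fpkm scale the order with vehicle was Sqstm1, Trim54, Gabarapl1, Trim63, Map1lc3b, Fbxo32, Foxo4, Trim55, Foxo3 and Foxo1. With IL-6 the order was the same. With OSM, Fbxo32 stood below Foxo4 and Trim55, and the other genes kept their order. The counting intervals of neighbours in these orders overlapped for Map1lc3b and Fbxo32 with vehicle and for Foxo4 and Trim55 with IL-6, and for no other pair. These levels depend on the gene lengths, which were far from those of the canonical transcripts in GENCODE M39 for Map1lc3b (7517 bases deposited, 889 canonical), Trim54 (1436 and 3426) and Trim63 (2842 and 1445). Levels per canonical length, a scale tried after the data were seen, kept the deposited counts and exchanged only the length. Reads outside the canonical exons were thus kept, and canonical bases outside the deposited model were not counted. On that scale Map1lc3b stood second with 266 fpkm with vehicle, 277 with IL-6 and 403 with OSM. Trim54, Gabarapl1 and Trim63 followed with 102, 101 and 96.8 fpkm with vehicle. The place of Map1lc3b holds only if its reads lay in the canonical exons, which was not tested. The ratio of a gene between libraries does not depend on its length, except where a length trend is subtracted.

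**Figure D1:**
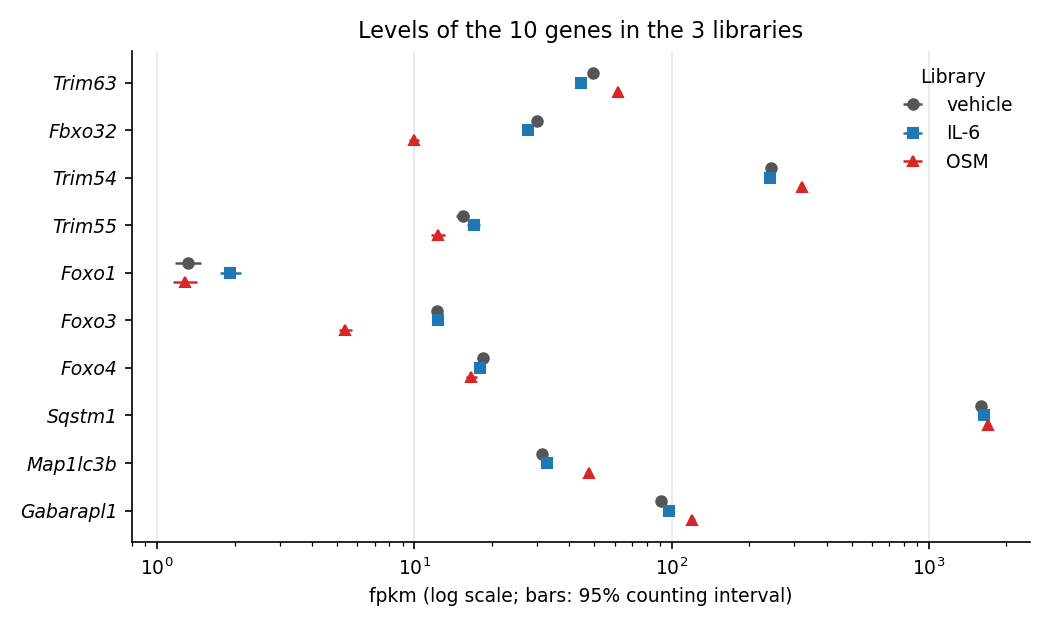
Levels of the 10 genes in fpkm on a log axis, with 1 point per library (circle, vehicle; square, IL-6; triangle, OSM) and bars for the 95% counting interval. The vehicle and IL-6 points lie close together except for Foxo1, and the OSM points of Fbxo32 and Foxo3 lie to their left.

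The ubiquitin ligases of muscle atrophy came apart in OSM-treated ACMs. Fbxo32, the substrate-binding F-box subunit of an SCF ligase, had 5263 counts with vehicle, 5210 with IL-6 and 2077 with OSM, which is 29.8, 27.6 and 9.97 fpkm. The vehicle and IL-6 libraries were alike and the OSM library was about 3.00-fold lower. Trim63, a RING-finger ligase of the sarcomere, had 3540, 3412 and 5272 counts, or 49.2, 44.3 and 62.1 fpkm, and was highest in the OSM library. Fbxo32 (ENSMUSG00000022358) is on chromosome 15 of GRCm39, minus strand, from 58039275 to 58078328, and Trim63 (ENSMUSG00000028834) is on chromosome 4, plus strand, from 134042431 to 134056940. Within a library, scaling between libraries plays no part in the ratio of these genes. Per gene length, Trim63 stood at 1.65 times Fbxo32 with vehicle (95% counting interval 1.58 to 1.72), at 1.61 times with IL-6 (1.54 to 1.68) and at 6.23 times with OSM (5.92 to 6.56). Per canonical transcript length, with the same counts, these ratios were 3.44, 3.35 and 13.0. Their size thus depends on the length used, and on either scale the OSM library had the highest. The ratios include the gene-length trend of the OSM library described below. With that trend subtracted, the log2 fold changes of OSM against vehicle were 0.12 for Trim63 and -1.40 for Fbxo32, in place of 0.33 and -1.58. At canonical lengths they were -0.12 and -1.36. In both readings the gap between the genes was smaller.

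Because FoxO factors are known to act on both ligase genes and the results set them apart, the 250 bases before the start of the canonical transcript are shown for Trim63 and Fbxo32, and for Foxo3, the other gene that was more than 2-fold lower with OSM. They were read from GRCm39 and are given 5′ to 3′ on the strand of the gene, at chr4:134042143-134042392 (plus strand), chr15:58078742-58078991 (minus strand) and chr10:42152760-42153009 (minus strand). Capitals mark matches to the 4 motifs searched on both strands, the FoxO motif TGTTTAC, the STAT motif TTCNNNGAA, the E-box CACGTG and the antioxidant response element TGACNNNGC.
Trim63: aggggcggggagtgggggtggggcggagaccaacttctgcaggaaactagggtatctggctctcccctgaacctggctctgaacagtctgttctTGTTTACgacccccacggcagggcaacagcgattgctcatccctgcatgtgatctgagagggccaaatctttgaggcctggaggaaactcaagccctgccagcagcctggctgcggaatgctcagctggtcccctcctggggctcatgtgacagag
Fbxo32: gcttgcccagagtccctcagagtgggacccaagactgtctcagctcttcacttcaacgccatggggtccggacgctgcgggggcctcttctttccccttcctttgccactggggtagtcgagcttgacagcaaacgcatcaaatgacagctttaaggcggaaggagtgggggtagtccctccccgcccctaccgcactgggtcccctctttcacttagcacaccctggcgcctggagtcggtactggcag
Foxo3: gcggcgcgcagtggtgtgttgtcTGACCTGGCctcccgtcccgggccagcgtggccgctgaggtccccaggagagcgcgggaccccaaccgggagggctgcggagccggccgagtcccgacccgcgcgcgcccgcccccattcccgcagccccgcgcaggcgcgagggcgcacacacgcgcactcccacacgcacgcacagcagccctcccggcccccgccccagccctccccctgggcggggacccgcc

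The FoxO motif was found before 1 of the 10 genes, Trim63, at -156 to -150 from the start, and in 2.72% of the windows of all 21757 protein-coding genes. Fbxo32 had none of the 4 motifs in its window. When the window was moved to the start given in the deposited annotation, which lies 413 bases downstream, an E-box CACGTG was found 27 bases before it. Foxo3 had the antioxidant response element TGACCTGGC at -227 to -219 and Sqstm1 had TGACTCAGC at -125 to -117, a motif held by 9.70% of all windows. The match of Sqstm1 depends on the gene model, since the deposited start lies 1231 bases downstream and the window before that start had no match. Trim55 had no match before its canonical start, and an antioxidant response element, GCTCCGTCA on the gene's strand, 35 bases before its deposited start. The STAT motif was found before Gabarapl1 as TTCTTTGAA at -182 to -174, and in 7.70% of all windows. That window overlaps an annotated exon of another Gabarapl1 transcript and one of 1700101I11Rik, the Foxo3 window overlaps exons of Gm56983 and Gm66047, and the Map1lc3b window overlaps an exon of Gm64324. No window before the canonical start of the 10 genes held the E-box, which 6.26% of all windows held. A match describes letters in the window and is not a measured binding site.

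For OSM against vehicle, each gene was given a log2 fold change of scaled counts with a 95% interval, and was called when the whole interval lay beyond 2-fold. The interval covers counting error only, and it compares 2 libraries rather than the conditions. Reads copied by PCR do not stand for separate molecules, so it may be too narrow even for that error. By this rule 2 of the 10 genes were called, both lower with OSM, where 9.17% of the 15537 compared genes were called, 3.74% higher and 5.43% lower. Among the 9883 genes with a mean of at least 100 counts, as all 10 had, 6.57% were called. With only 10 genes, the count of 2 cannot be set apart from that background. The log2 fold change of Fbxo32 was -1.58 (-1.66 to -1.51), and 103 of the 9444 protein-coding genes with a mean of at least 100 counts had a lower value. Foxo3 had -1.19 (-1.29 to -1.08), or 2.27-fold lower, with 350 such genes below it. The rule of 1.5-fold, which called 20.6% of all compared genes, called the same genes and no other of the 10.

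The log2 fold changes of the OSM library fell with gene length, and Fbxo32 and Foxo3 are long. Protein-coding genes of the length given for Fbxo32 (6976 bases) lay on a loess trend of -0.19, those of the length of Foxo3 (7571 bases) on -0.24 and those of the length of Trim54 (1436 bases) on 0.45. With the trend subtracted, Fbxo32 stood at -1.40 (-1.47 to -1.32) and was still called, and Foxo3 stood at -0.95 (-1.05 to -0.85) and was not. Read at the canonical transcript lengths, a choice made after the data were seen, the same trend left Fbxo32 at -1.36 (-1.44 to -1.29) and Foxo3 at -1.01 (-1.11 to -0.91), with the same outcome. In IL-6 against vehicle the trend was between -0.01 and 0.01 at the lengths of the 10 genes. The part of the length trend in the OSM results was not tested.

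**Figure D2:**
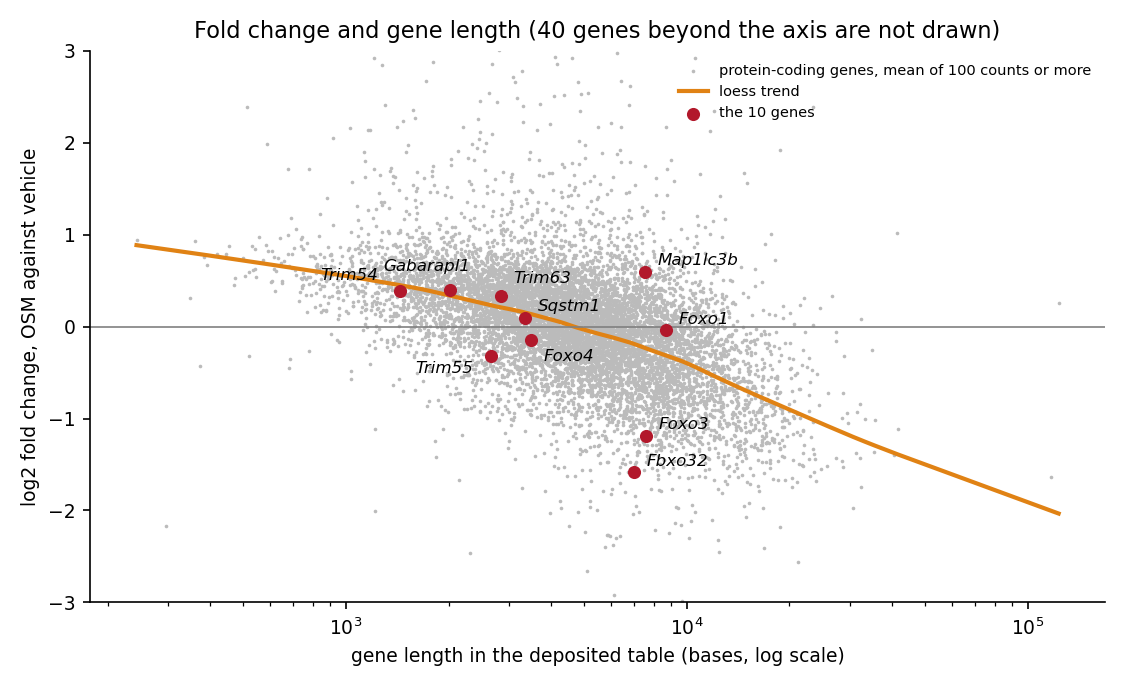
Log2 fold change of OSM against vehicle plotted on deposited gene length (log axis) for the protein-coding genes with a mean of at least 100 counts (grey; 40 genes beyond the axis are not drawn), with the loess trend as a line and the 10 genes as large points. Fbxo32 and Foxo3 lie far under the line, Map1lc3b lies above it at its deposited length, and Trim54, Gabarapl1 and Sqstm1 lie close to it.

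The MuRF family, whose members bind titin and other sarcomere proteins, had no called gene in OSM against vehicle. Trim54 (MuRF3), a microtubule-associated member, had 244 fpkm with vehicle, 242 with IL-6 and 320 with OSM, and by the deposited lengths made 79.1%, 79.8% and 81.1% of the summed fpkm of the family. Trim63 made 16.0%, 14.6% and 15.7% and Trim55 (MuRF2) made 4.99%, 5.61% and 3.12%. Per canonical transcript length the share of Trim54 was 47.9%, 49.6% and 50.1% and that of Trim63 45.4%, 42.7% and 45.6%. The size of the gap between them thus depends on the length used. These shares keep the counts of the deposited models, which end before the canonical transcript of Trim54 and beyond that of Trim63. They are therefore not levels counted under another gene model. Trim55 had 1035 counts with vehicle, 1224 with IL-6 and 978 with OSM. The log2 fold changes of OSM against vehicle were 0.33 (0.27 to 0.39) for Trim63, 0.39 (0.35 to 0.43) for Trim54 and -0.32 (-0.45 to -0.20) for Trim55. Each interval was clear of 0, as it was for 66.4% of all compared genes and for 78.4% of those with a mean of at least 100 counts. With the length trend subtracted, Trim63 stood at 0.12 and Trim55 at -0.55, while Trim54 turned to -0.06. With the trend read at the canonical lengths, Trim63 turned to -0.12 and Trim54 stayed above 0 at 0.25, so that the signs of both with the trend subtracted depend on the gene model.

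Among the FoxO genes, whose proteins share a forkhead DNA-binding domain, Foxo4 had the highest level on the fpkm scale and Foxo1 the lowest. Foxo3 (ENSMUSG00000048756; chromosome 10, minus strand, 42057837 to 42152751) had 2345 counts with vehicle, 2537 with IL-6 and 1219 with OSM, or 12.2, 12.4 and 5.39 fpkm. The OSM library was the low one and the other libraries were alike. Foxo4 had 1622, 1693 and 1734 counts, or 18.4, 17.9 and 16.7 fpkm, with a log2 fold change of -0.15 (-0.24 to -0.05) for OSM against vehicle. The share of Foxo3 in the summed fpkm of the 3 genes was 38.3% with vehicle, 38.4% with IL-6 and 23.1% with OSM, and that of Foxo4 was 57.6%, 55.6% and 71.4%. Foxo1 had 289 counts with vehicle, 452 with IL-6 and 333 with OSM, and was highest in the IL-6 library. Its log2 fold change was -0.04 for OSM against vehicle, with an interval of -0.27 to 0.20 that held 0, and with the length trend subtracted it turned to 0.28 (0.04 to 0.51), clear of 0.

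The autophagy genes were not called. Sqstm1 (ENSMUSG00000015837; chromosome 11, minus strand, 50090193 to 50101654) had 134960 counts with vehicle, 148692 with IL-6 and 170622 with OSM, or 1590, 1635 and 1702 fpkm, and was close to level. Its log2 fold change for OSM against vehicle, 0.10 (0.09 to 0.11), has a narrow interval because of the very high count, and it turned to -0.06 with the length trend subtracted. Map1lc3b, which encodes LC3B, the protein most used to mark autophagosomes, had 5974, 6671 and 10690 counts and was highest with OSM. Its log2 fold change of 0.60 (0.55 to 0.64) was the largest upward value among the 10 genes, 1.51-fold, and stood at 0.83 with the length trend subtracted at the deposited length and at 0.02 (-0.03 to 0.06) with the trend read at the canonical length. The counts of Map1lc3b are uncertain, since copies elsewhere in the genome at 97% identity or more cover 76.7% of its transcript, and Zcchc14 overlaps it on the opposite strand with 1880, 1963 and 1903 counts. Gabarapl1, an ATG8 protein of the GABARAP branch, had 4640, 5323 and 7236 counts and a log2 fold change of 0.40 (0.35 to 0.45), which came to 0.06 with the trend subtracted, or 0.02 at the canonical length. For the other 9 genes such copies cover at most 1.42% of the transcript, that of Fbxo32.

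**Figure D3:**
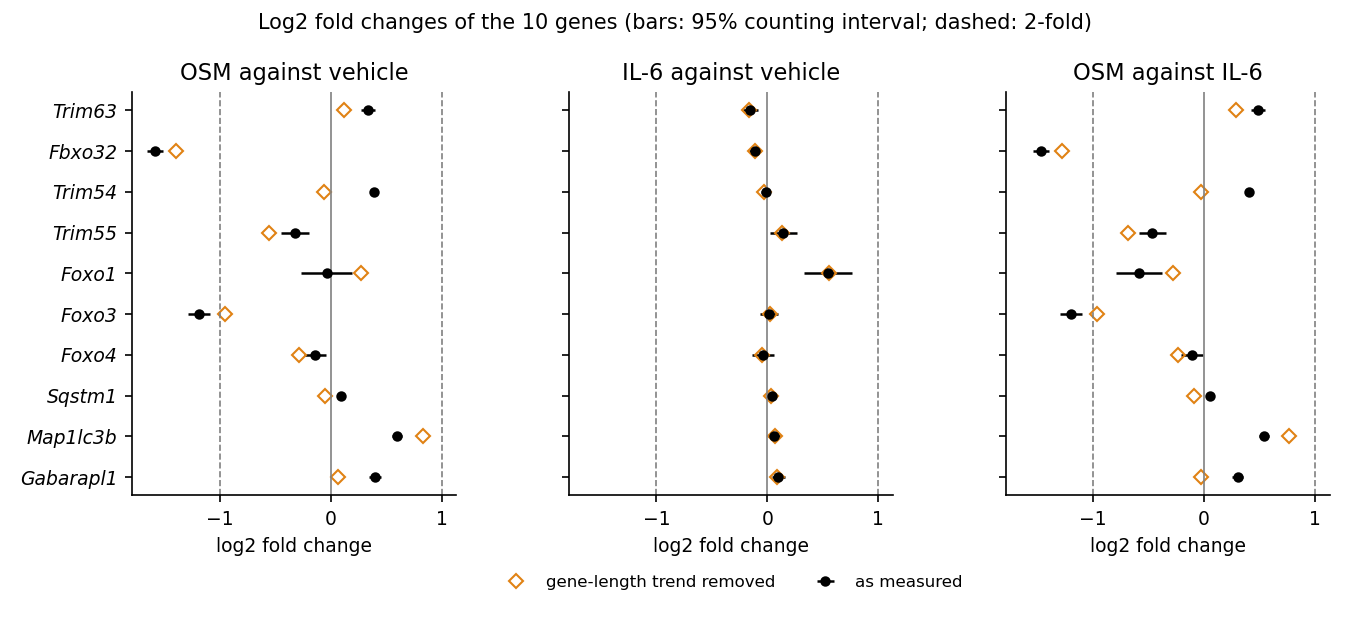
Log2 fold changes of the 10 genes in the 3 comparisons, with the 95% counting interval as bars, dashed lines at 2-fold and open diamonds for the value after the gene-length trend was subtracted. Fbxo32 and Foxo3 lie beyond 2-fold in both comparisons with the OSM library, where the diamond of Foxo3 moves inside the line, and all points of IL-6 against vehicle lie within 2-fold.

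IL-6-treated ACMs were close to vehicle for these genes. In IL-6 against vehicle 0 of the 10 genes were called, where 3.51% of the 15472 compared genes were called, and among the 9786 genes with a mean of at least 100 counts 0.112% were. The largest value was that of Foxo1, 0.55 (0.33 to 0.76) or 1.46-fold, and 137 of the protein-coding genes with a mean of at least 100 counts stood above it. Trim63 had -0.15 (-0.22 to -0.08) and Fbxo32 -0.11 (-0.17 to -0.06). The values of Trim55, Gabarapl1, Map1lc3b and Sqstm1 were 0.14, 0.10, 0.06 and 0.04, with intervals above 0. Those of Trim54, Foxo3 and Foxo4 were -0.02, 0.01 and -0.04, with intervals that held 0. Intervals clear of 0 were found for 38.7% of all compared genes and for 40.9% of those with a mean of at least 100 counts. The IL-6 here was human, and Socs3 and Timp1 had no more counts with it than with vehicle, so that the response of these ACMs to it was not shown by those genes.

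Set directly against the IL-6 library, the OSM library again had 2 of the 10 genes called, where 9.66% of 15544 compared genes were called, 4.24% higher and 5.42% lower. The log2 fold change was -1.47 (-1.54 to -1.39) for Fbxo32 and -1.20 (-1.30 to -1.10) for Foxo3. Both comparisons use the OSM library, so the calls are not independent. Trim63 had 0.49 (0.42 to 0.55), Map1lc3b 0.54 (0.49 to 0.58) and Foxo1 -0.58 (-0.79 to -0.37), all within 2-fold. With the length trend subtracted, Foxo3 stood at -0.97 (-1.07 to -0.87) and was not called.

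Other genes of the same pathways were taken from fixed lists, each described for OSM against vehicle by its calls and median log2 fold change, where the median of all compared genes was 0.00 and 3.74% of them were called higher and 5.43% lower. The lists are small, and no count of calls in a list was tested against these shares. Of 33 other muscle ubiquitin ligases, 1 was higher and 3 were lower, with a median of -0.29 that stayed at -0.24 with the length trend subtracted. Fbxo40, an F-box protein of muscle that targets the insulin receptor substrate IRS1, fell from 13061 to 6306 counts (-1.29, -1.34 to -1.25). Asb15 and Asb18, which belong to the ankyrin and SOCS-box family of ligase subunits, fell from 944 to 248 counts (-2.17) and from 223 to 92 counts (-1.52). Copies at 97% identity or more cover 9.46% of the Asb18 transcript. Asb4, of the same family, rose from 92 to 347 counts (1.67, 1.34 to 2.02). At the deposited lengths all these calls held without the length trend, and Cblb, which encodes a ligase of growth factor receptors, gained one, from 0.86 to 1.30. The call of Asb18, with an upper limit of -1.16 before the trend was subtracted, may depend on the gene model. The trend lay at 0.07 at its deposited length of 4070 bases and near -0.21 at the 7297 bases of its canonical transcript. Trim72 (MG53), a membrane repair protein, had the highest level of the list, 145 fpkm with vehicle, and a log2 fold change of 0.02, or -0.28 with the trend subtracted.

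The general ubiquitin machinery had no called gene in OSM against vehicle. Of 25 compared ubiquitin, E1 and E2 genes, 0 were called and the median was 0.18, or 0.06 less the length trend. With the length trend subtracted, Ube2d3, an E2 enzyme with a deposited length of 24499 bases, was called higher, at 1.25 in place of 0.21. Ubb, which encodes a polyubiquitin, had 549 fpkm with vehicle and a log2 fold change of 0.32, or -0.08 with the trend subtracted. Rps27a, which encodes ubiquitin fused to a ribosomal protein, had 1.03 (0.97 to 1.09), or 0.68 with the trend subtracted. Transcripts of this kind have many processed copies, and copies at 97% identity or more cover 45.7% of the transcript of Ubb and 45.7% of that of Rps27a, so these counts are uncertain. Of the 10 genes of the cullin scaffold that atrogin-1 joins, 0 were called (median -0.09, or -0.06 with the trend subtracted). Skp1, the adaptor that F-box proteins bind, had 78.4 fpkm with vehicle and a log2 fold change of 0.23, and the RING subunit gene Rbx1 and Nedd8, whose product activates cullins, had 0.54 and 0.66. Less the trend, Skp1, Rbx1 and Nedd8 stood at -0.08, 0.52 and 0.17. The value of Rbx1 rests on its deposited length of 4551 bases. Its canonical transcript has 1706 bases, where the trend lay near 0.40. Copies at 97% identity or more cover 31.9% of the Rbx1 transcript.

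Of 20 genes of FoxO regulators, 0 were higher and 2 were lower, where 5.43% of all compared genes were lower, with a median of -0.36 that came to -0.08 with the length trend subtracted. Prkaa2, the AMPK subunit of striated muscle, fell from 6958 to 3136 counts (-1.39, -1.45 to -1.33) and held its call without the trend. Ep300, an acetyltransferase for FoxO proteins, fell from 2028 to 917 counts (-1.39), and with the trend subtracted it stood at -0.72. Ywhag, a 14-3-3 protein, and Akt1 had the highest levels, with log2 fold changes of 0.23 and 0.40. Among 30 compared FoxO target genes, 2 were higher and 2 lower (median -0.21), where 9.17% of all compared genes were called. Trib1, a pseudokinase of a ubiquitin ligase complex, rose from 143 to 1331 counts (2.98, 2.73 to 3.24), and Cdkn2d, a cell cycle inhibitor, rose from 303 to 1038 (1.53). Insr, the insulin receptor, fell from 4074 to 1954 counts (-1.30) and Sesn3, a stress-induced sestrin, from 1906 to 1018 (-1.15). With the trend subtracted, Insr, Sesn3 and Cdkn2d lost their calls, at -0.66, -0.43 and 1.11. Cat, which encodes catalase and had a log2 fold change of -0.83, gained one at -1.07. Pink1, a mitophagy kinase, had 262 fpkm with vehicle and a log2 fold change of 0.33, or 0.10 with the trend subtracted. Pck1 and Igfbp1, liver targets of FoxO1, had 0 counts in all 3 libraries.

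Glucocorticoids are another known inducer of Trim63 and Fbxo32. Of 16 glucocorticoid-responsive genes, 2 were higher with OSM and 0 lower (median 0.12), where 3.74% of all compared genes were higher. These were the metallothionein genes Mt1, from 12390 to 40244 counts (1.46, 1.43 to 1.49), and Mt2, from 183 to 854 (1.98, 1.75 to 2.22), of which Mt1 lost its call with the length trend subtracted, at 0.97. Metallothioneins also respond to metals and cytokines. Pdk4, a kinase that restrains glucose oxidation, had 107 fpkm with vehicle and a log2 fold change of -0.11, or -0.24 with the trend subtracted.

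The autophagy pathway was described by 4 lists, from initiation to fusion with the lysosome, in a comparison where 9.17% of all compared genes were called. Of 25 initiation and nucleation genes 0 were called, with a median of -0.27 that came to -0.06 with the trend subtracted. The largest values among the well counted ones were those of Rubcn, an inhibitor of autophagosome maturation, at -1.07 (-1.16 to -0.98), and Atg2b, a lipid transfer protein, at -0.81, which came to -0.84 and -0.19 with the trend subtracted. On the opposite strand Rubcn overlaps Fyttd1 (4926 counts with vehicle, 4430 with OSM). Atg13 and Sh3glb1 had the highest levels, 41.2 and 38.8 fpkm with vehicle, and values of 0.07 and 0.01, or 0.03 and 0.24 with the trend subtracted. Of 17 genes of the ATG8 family and its conjugation, which include Map1lc3b and Gabarapl1, 0 were called (median 0.14). Map1lc3a, the highest of the ATG8 genes at 278 fpkm with vehicle and 459 with OSM, had 0.72 (0.68 to 0.76) and Gabarap had 0.51 (0.46 to 0.56), which came to 0.22 and 0.14 with the trend subtracted. The summed fpkm of Map1lc3a, Map1lc3b, Gabarap, Gabarapl1 and Gabarapl2 was 540 with vehicle, 557 with IL-6 and 825 with OSM, and per canonical transcript length it was 920, 948 and 1414. On that scale Map1lc3a was again the highest of these, and Map1lc3b made 28.9%, 29.2% and 28.5% of the sum, in place of 5.82%, 5.88% and 5.77%. The counts were again those of the deposited models, so these shares of Map1lc3b hold only if its reads lay in the canonical exons. The largest downward value of the list among well counted genes was that of Tecpr1, which acts in autophagosome fusion, at -0.61, and it came to -0.03 with the trend subtracted. The latter value rests on its deposited length of 12772 bases, where the trend lay near -0.58. At the 5588 bases of its canonical transcript the trend lay near -0.08.

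Of 25 compared autophagy receptors, which include Sqstm1, 0 were higher and 2 were lower (median -0.06, or -0.11 with the length trend subtracted). Retreg1, a receptor for the endoplasmic reticulum, fell from 6054 to 3023 counts (-1.24, -1.31 to -1.18) and held its call without the length trend, and Wdfy3, a scaffold for p62 bodies, fell from 1509 to 543 (-1.72, -1.86 to -1.57) and lost its call without it. Hspb8, a small heat shock protein that works with Bag3, was second to Sqstm1 at 467 fpkm with vehicle and had -0.01, or -0.36 with the trend subtracted. Of 20 compared fusion genes and TFE factors, 0 were higher and 3 were lower (median -0.13, or -0.01 with the length trend subtracted). Fnip1 and Fnip2, folliculin partners that act on TFE factors, fell from 1900 to 876 counts (-1.36) and from 1472 to 753 (-1.21), and Epg5, a tether of autophagosomes and lysosomes, fell from 1018 to 532 (-1.18). With the trend subtracted, Fnip1 was still called, at -1.16, and Fnip2 and Epg5 were not, at -0.89 and -0.78. Rab7 and Ykt6, at 69.5 and 44.6 fpkm with vehicle, had 0.01 and 0.20, or -0.23 and 0.00 with the trend subtracted.

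Sqstm1 is also a target of NRF2, the factor of the antioxidant response, which p62 in turn activates by binding KEAP1. Of 22 NRF2 pathway genes 0 were called, with a median of 0.19 that came to 0.04 with the length trend subtracted. Hmox1, heme oxygenase 1, had 21824 counts with vehicle, 22097 with IL-6 and 52131 with OSM, and its value of 1.01 (0.99 to 1.04) was at the edge of the rule and came to 0.62 with the trend subtracted. Ephx1, an epoxide hydrolase, had -0.91, and Srxn1, sulfiredoxin, had 0.56, or 0.35 with the trend subtracted. That value of Srxn1 depends on the gene model. The trend lay at 0.21 at its deposited length of 2820 bases and near -0.21 at the 7203 bases of its canonical transcript. Ephx1 was called lower with the length trend subtracted, at -1.26, and Txnrd1, a thioredoxin reductase, was called higher, at 1.05 in place of 0.85. The call of Ephx1 may depend on the gene model. The trend lay at 0.35 at its deposited length of 1950 bases and near 0.08 at the 3952 bases of its canonical transcript. Of 26 genes of proteins that MuRF proteins or atrogin-1 are known to bind, 0 were higher and 1 was lower. Their median was 0.11, or 0.19 with the trend subtracted. Ttn, the giant sarcomere protein titin, fell from 18901 to 7191 counts (-1.64, -1.68 to -1.60). At 117334 bases it is the longest of them and stood at 0.37 with the trend subtracted. Myl2 and Tnni3, a myosin light chain and cardiac troponin I, had the highest levels and values of 0.62 and 0.68, or 0.27 and 0.35 with the trend subtracted.

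**Figure D4:**
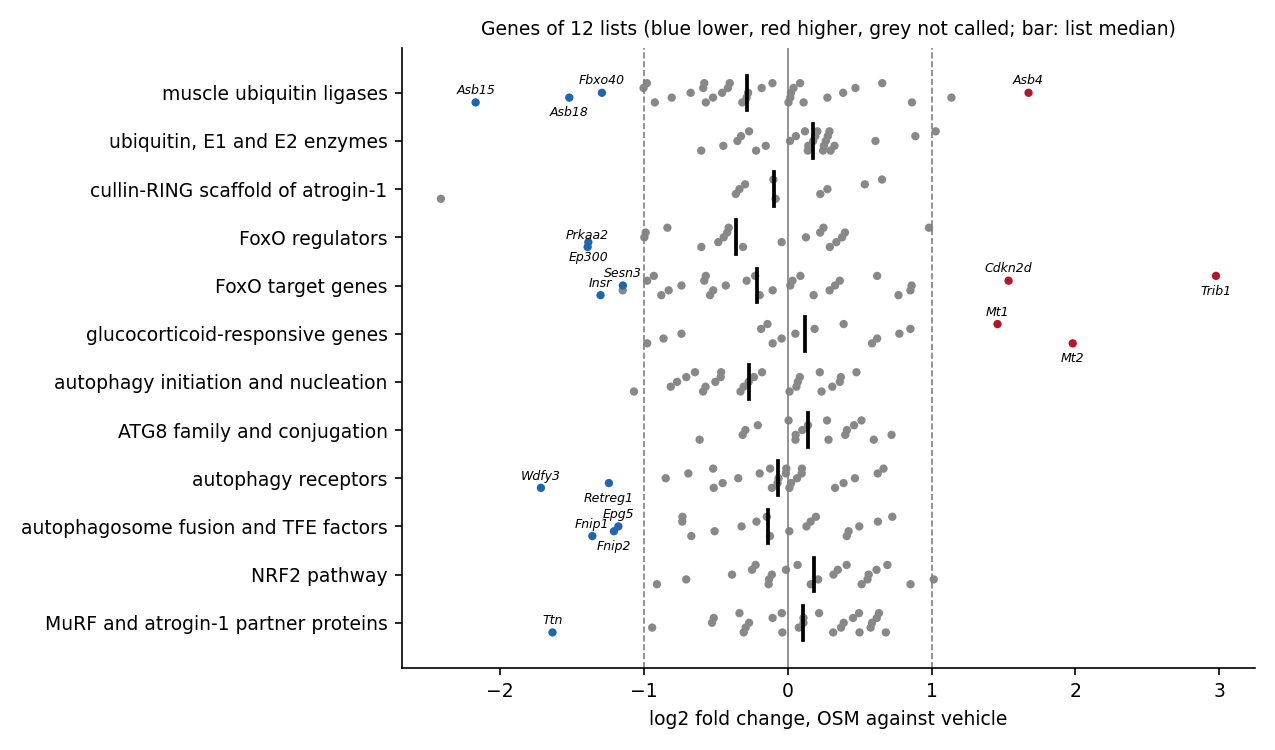
Log2 fold change of OSM against vehicle for each compared gene of 12 lists (1 point per gene; blue called lower, red called higher, grey not called), with a bar at the list median and dashed lines at 2-fold. Medians lie between -0.36 (FoxO regulators) and 0.19 (NRF2 pathway), and called genes of the 12 lists lie on both sides.

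In IL-6 against vehicle, the medians of these 12 lists lay between -0.02 (glucocorticoid-responsive genes) and 0.04 (ATG8 family and conjugation), and calls were made in 2 of them. Skp2, an F-box protein, had 18 counts with vehicle and 2 with IL-6 (-3.27, -6.42 to -1.21), and Sumo2, a modifier protein, had 1273 counts with vehicle, 320 with IL-6 and 1399 with OSM. Copies at 97% identity or more cover 94.8% of the Sumo2 transcript, so its counts are uncertain. Among the marker lists, cardiomyocyte markers had a median of 0.14 for OSM against vehicle and 2 of 15 lower, Ttn and Ryr2. Both lost the call with the length trend subtracted, at 0.37 and -0.37. The endothelial median was 0.10 with 0 called and that of 8 compared fibroblast genes -0.38 with 0 called. Uncalled fibroblast markers with intervals clear of 0 were Dcn at 1.18 (0.69 to 1.68) and Gsn at -0.42 (-0.69 to -0.16). In the endothelial list they were Esam at 1.28 (0.84 to 1.73) and Pecam1 at 0.37 (0.11 to 0.64). The median of 7 compared macrophage genes was 0.93 with Cd68 higher, and the intervals of 5 of them held 0. The list had 616 counts in sum with vehicle, 382 of them for Cd68 and 187 for Csf1r. Csf1r had a log2 fold change of -0.08 (-0.37 to 0.21), so that the median rests on genes with few counts. The smooth muscle and pericyte median over 8 compared genes was 0.32, with Abcc9 lower, and that of 4 compared skeletal muscle genes 0.73, with Tnni2 higher at 3 and 25 counts (2.82, 1.10 to 5.19). Cd68, Abcc9 and Tnni2 lost their calls with the length trend subtracted, at 1.16, -1.02 and 2.38. Cspg4, a pericyte proteoglycan, gained one, at 1.68 in place of 1.14. The loss for Abcc9 may depend on the gene model. The trend lay at -0.29 at its deposited length of 8373 bases and near -0.23 at the 7460 bases of its canonical transcript. With the trend subtracted, the endothelial and fibroblast medians stood at 0.42 and -0.23. The macrophage, smooth muscle and skeletal muscle medians stood at 0.53, 0.08 and 0.34. Of the 6 genes of the cytokine check, Socs3, Timp1 and Osmr were higher (median 0.95).

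The genes whose pattern over the 3 libraries was most like that of a member were sought among 9440 protein-coding genes with a mean of at least 100 counts, by the Euclidean distance of centred log2 levels. With 3 libraries, many genes lie close. For Fbxo32 they were Trpm7, Sptbn1 and Casp8ap2, at distances of 0.03, with 32 genes within 0.1. Sptbn1, spectrin beta, had 10819 counts with vehicle, 10840 with IL-6 and 4393 with OSM. The likeness takes no account of gene length. Sptbn1 had a log2 fold change of -1.54 for OSM against vehicle. The length trend lay at -0.81 at its deposited length of 17492 bases and near -0.30 at the 8484 bases of its canonical transcript. At the deposited lengths of Trpm7 and Casp8ap2 the trend lay at -0.49 and -0.17. For Trim63 the nearest were Txlna, Gmnn and Mrpl32, with 402 genes within 0.1, and for Sqstm1 they were Tspan3, Ankrd13b and Taf5l, with 880 genes within 0.1. These numbers follow the size of the log2 fold changes, since 103 of 9444 such genes lay below Fbxo32 for OSM against vehicle, and are not a separate result.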

How the data were processed

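Gene expression was measured in 3 pooled libraries, 1 per condition, grouped by the sample labels. The authors deposited raw whole-number counts and, made from them, fpkm. The submitters' processing notes name fastp, HISAT2 2.2.1, featureCounts 2.0.6 and edgeR 4.0.16 on mm39, while the paper's methods give other versions of featureCounts and edgeR, and whether counting was strand-specific is not stated, so values of overlapping genes are uncertain. TMM factors (edgeR 4.0.16, R 4.3.3) were computed per pair of libraries, and a gene entered a comparison with 10 or more counts in the pair. The log2 fold change, the log2 ratio of scaled counts, has a 95% Clopper-Pearson interval, taken from 1 library's count within the summed count. No p-value was computed. The loess trend (fraction 0.3, statsmodels 0.14.6) was fitted over protein-coding genes with a mean of at least 100 counts. Copies were sought with BLAST+ 2.17.0 over alignments of at least 100 bases. Of 56748 gene identifiers, 56017 were found in GENCODE M39, all on overlapping coordinates. Calls were tested on simulated data that held counting error only, with the scaling known. That test cannot show how the calls fare with spread between libraries.

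All 10 members are named. Of each of 19 lists, the called genes (at most 5 per direction), the 2 highest by fpkm with vehicle and, where none was called, the 2 with the largest change among genes with a mean of at least 100 counts are named for OSM against vehicle, plus the 3 nearest patterns of Trim63, Fbxo32 and Sqstm1. Some genes that this rule names are not reported here. Skp2, Sumo2, Gabarapl2, overlapping genes, zero-count markers and genes called only with the length trend subtracted (Cblb, Ube2d3, Txnrd1 and Cspg4) are outside that rule and were named after their values were seen. The members and lists were chosen with earlier results of these data known. The alternatives were DESeq2 1.42.0 size factors, upper-quartile factors, total counts, other count minimums, other call rules and intervals, the length trend and the ratio of fpkm. Levels per canonical transcript length, and the length trend read at that length, were added after the data were seen. For these levels the deposited counts were kept and only the length was exchanged, without counting reads anew. At that length the trend was subtracted for the 10 genes only. For all other genes, values and calls with the trend subtracted hold at the deposited lengths.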

Additional observations from a re-analysis of the deposited data

How the results depend on the processing

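No paired analysis was possible because each condition has 1 library, and for the same reason none could be left out. Fbxo32 was called lower with OSM, against vehicle and against IL-6, under all 10 alternatives, and Foxo3 under 9 of them. With the length trend subtracted, the members called fell from 2 to 1 in both comparisons; the cause was not tested. In IL-6 against vehicle 0 members were called under every alternative. Over the other alternatives, the log2 fold change of OSM against vehicle lay between -1.64 and -1.55 for Fbxo32, between -1.25 and -1.15 for Foxo3 and between 0.27 and 0.36 for Trim63. With the trend subtracted, Trim54, Foxo1 and Sqstm1 changed sign in OSM against vehicle, and Trim54, Gabarapl1 and Sqstm1 in OSM against IL-6. With total counts only, Sqstm1 changed sign in OSM against IL-6 (-0.02) and Trim54 in IL-6 against vehicle (0.00). Levels per canonical transcript length, added after the data were seen, moved by more than 1.5 times the levels of Trim63, Trim54 and Map1lc3b, the ratio of Trim63 to Fbxo32, the MuRF family shares of Trim63 and Trim54, the summed ATG8 level and the ATG8 shares of Map1lc3b, Gabarap and Gabarapl1. With the length trend read at these lengths, but not refitted on them, the calls of the members did not change, and Trim63 turned to -0.12 in OSM against vehicle and Map1lc3b came to 0.02, or -0.01 in OSM against IL-6.

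The numbers of all called genes moved by more than 1.5 times under the following alternatives, as their construction leads to fewer or more calls. With a minimum of 50 counts there were 382 higher and 502 lower genes in OSM against vehicle, 31 and 25 in IL-6 against vehicle and 386 and 479 in OSM against IL-6. With the whole interval beyond 1.5-fold there were 1357 and 1850, 457 and 445, and 1365 and 1854. With the point estimate alone there were 1565 and 2034, 1033 and 1025, and 1557 and 1981. With a 99% interval there were 103 and 134 in IL-6 against vehicle and 437 higher in OSM against IL-6.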

Other observations

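Some genes of the pathway lists passed the 2-fold rule with OSM against only 1 of the other libraries, several of them at the edge of the rule. In the direct comparison of those libraries, IL-6 against vehicle, Sumo2 alone of these genes was called, so for the others no difference between the comparisons beyond 2-fold is shown. Called against IL-6 and not against vehicle were Fbxl22, Hmox1, Rictor, Rps27a and Sumo2. Fbxl22, a sarcomeric F-box protein, had 434 counts with vehicle, 422 with IL-6 and 1129 with OSM, and its log2 fold change was 1.28 (1.12 to 1.44) against IL-6. Hmox1 had 1.10 (1.07 to 1.12) against IL-6. Rictor, a subunit of mTORC2, had 623, 799 and 374 counts and -1.24 (-1.42 to -1.06) against IL-6. With the length trend subtracted, Fbxl22 stood at 1.21 and Sumo2 at 1.60 and kept their calls, and Hmox1 at 0.72, Rps27a at 1.06 and Rictor at -0.49 lost theirs. Rps27a had 1.40 (1.34 to 1.46) and Sumo2 1.99 (1.81 to 2.17) against IL-6, and both transcripts have copies elsewhere in the genome. Called against vehicle and not against IL-6 were Asb4, with 1.03 (0.75 to 1.31) against IL-6, Asb18 with -1.13 (-1.51 to -0.76), Fnip2 with -1.05 (-1.18 to -0.92) and Epg5 with -0.93 (-1.09 to -0.78). These genes were named after their values were seen, and the OSM library enters both comparisons.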
